A study of Mus musculus with 20 samples.

Results

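The 9 genes described here are Zbtb16 and 8 Krüppel-like factor genes, Klf2, Klf3, Klf4, Klf6, Klf9, Klf10, Klf13 and Klf15. They were taken by name from the 22180 genes that have a probe set with a single symbol in the table. Each of the 9 had 1 such probe set. The choice was made with earlier results of these data known, so counts of members set against all genes are a description only. RNA came from the spinal cord of C57BL/6J mice aged 6 to 10 weeks. It was measured on Affymetrix arrays that cover whole transcripts, with 5 mice, and 5 arrays, in each of 4 groups. Cx30GRko mice lost the glucocorticoid receptor gene through Cre recombinase in cells that make connexin 30, a gap junction protein of astrocytes, as the strain's name and the series title have it. The promoter that drives Cre is not described further in the labels. The groups were Cx30GRko mice given dexamethasone (Dex, a receptor agonist, 4 mg/kg, intraperitoneal), control mice given Dex, Cx30GRko mice given saline and control mice given saline, with tissue taken 4 h after the injection. The arrays titled Tg were read as Cx30GRko and those titled wt as control. The labels give C57BL/6J for every mouse and do not say which alleles the control mice carried. Cells that do not make Cre keep the receptor gene in Cx30GRko mice.

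Zbtb16 encodes a zinc finger repressor whose BTB domain recruits corepressor complexes, and its transcript is widely used as a marker of glucocorticoid exposure in cultured cells and tissues. The Krüppel-like factors share C-terminal zinc fingers that bind GC-rich and CACCC sequences and differ in the rest of the protein, so that some activate and others repress. Klf9 and Klf15 are known as direct glucocorticoid receptor targets, Klf9 in neurons and epithelia and Klf15 in liver, muscle and airway, whereas Klf2 and Klf4 are known from endothelium, Klf10 from the response to TGF-beta and Klf6 from tissue injury.

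Signals are log2 values as deposited, whose precision is limited by how many arrays there are. The values had been centred per probe set within 2 sets of arrays, replicates 1 to 3 of every group (12 arrays) and replicates 4 and 5 (8 arrays), which the labels do not mention. The spread was larger in the second set. The SD within groups of the 9 genes, as moderated by limma towards that of all genes, lay between 0.14 and 0.31 in replicates 1 to 3. In replicates 4 and 5 this moderated SD lay between 0.29 and 0.55. Cx30GRko Dex replicates 4 and 5 stood apart from the other arrays, with SDs over all probe sets of 1.95 and 1.81 against 1.66 to 1.71 in the other 18 arrays. Of the measured markers, 11 of 11 for astrocytes, 9 of 9 for oligodendrocytes and 11 of 11 for neurons had means above the median of all probe sets. The same held for 6 of 6 Schwann cell, 8 of 9 mural cell and 8 of 10 meningeal fibroblast markers. These counts therefore do not set the cord apart from nearby tissue. The probe set of Nr3c1, the receptor gene, checks the knockout little, because whether it lies in the removed part was not stated. After Dex Nr3c1 averaged 6.59 ± 0.70 in Cx30GRko and 6.22 ± 0.08 in control arrays, and after saline 6.19 ± 0.21 and 6.21 ± 0.50 (SD, n = 5 each). Cx30GRko Dex replicate 4, one of the arrays that stood apart, read 7.79 for Nr3c1, against 6.08 to 6.62 in the other 4 arrays of its group. Whole-cord RNA does not tell a change in the number of cells of a type from a change in RNA per cell.

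**Figure D1:**
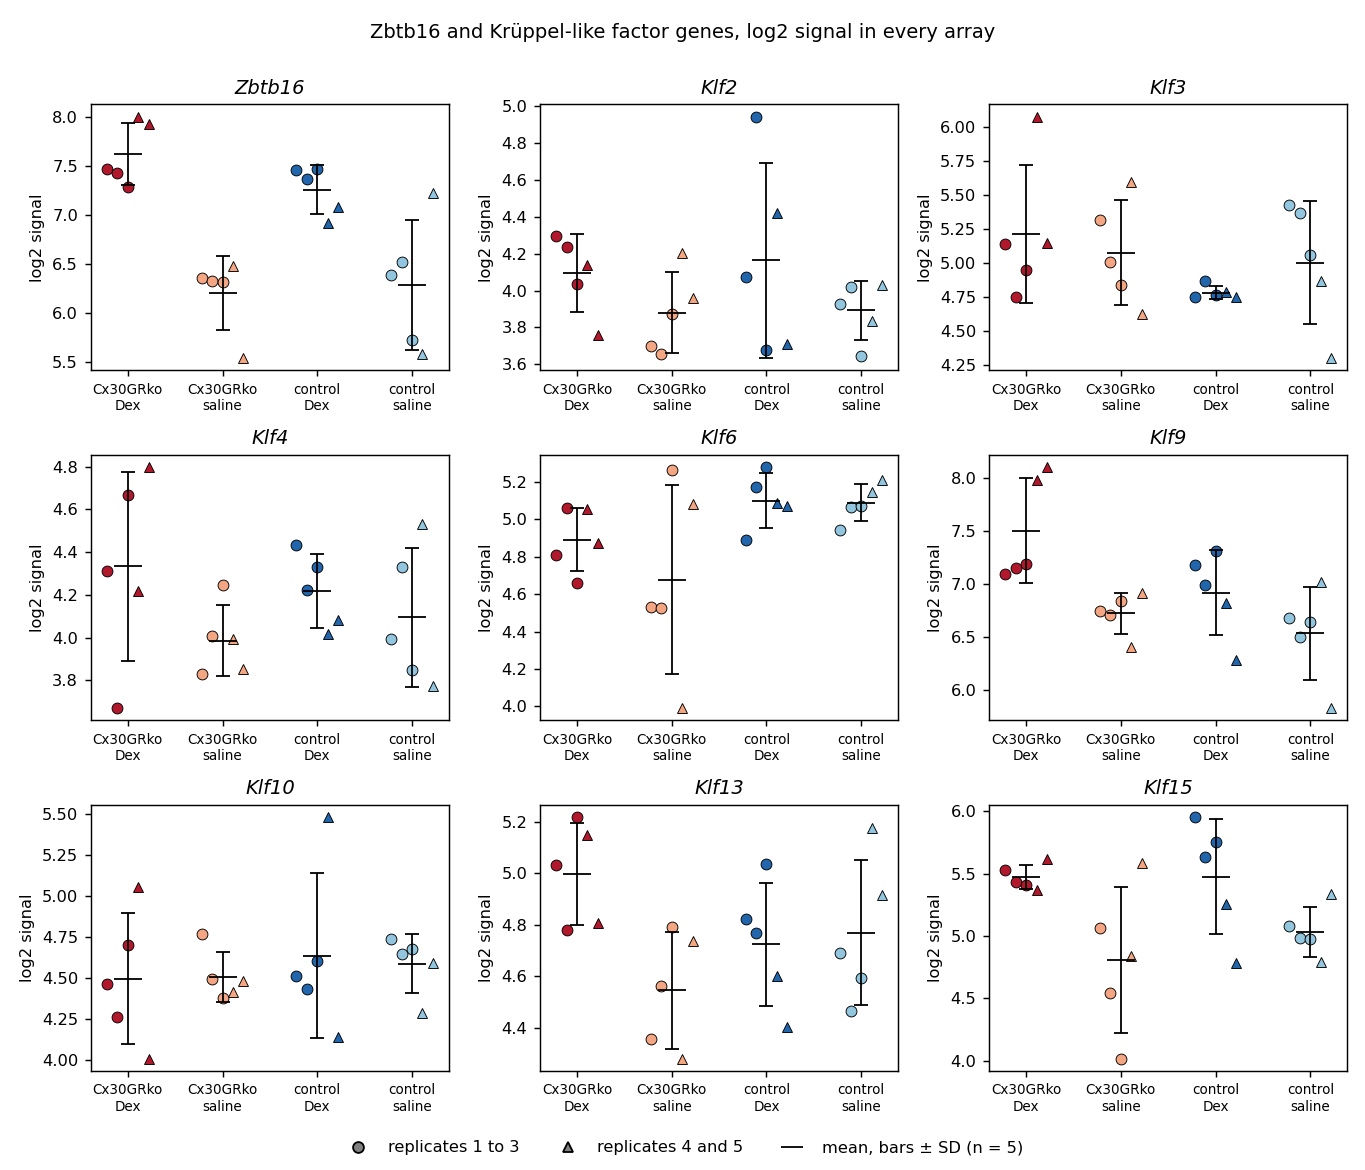
Log2 signal of each gene in every array (vertical axes, log2 signal, each panel with its own range), with the Dex group left of its saline group in each genotype. Circles are replicates 1 to 3, triangles are replicates 4 and 5, and lines with bars are the mean ± SD of 5 arrays. In Zbtb16 the circles of the Dex groups lie at 7.29 to 7.47, above those of the saline groups at 5.73 to 6.53.

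Zbtb16 (probe set 17526707) rose with Dex in the mean of both genotypes by 1.19 ± 0.18 log2 (SE, adjusted p = 0.00268 in limma, n = 10 Dex and 10 saline arrays), a 2.29-fold difference. Of the 9 genes 1 passed in that comparison, against 0.149% of all genes called. From replicate 1 to 5 Zbtb16 read 7.47, 7.43, 7.29, 8.01 and 7.92 in Cx30GRko Dex arrays, against 6.36, 6.33, 6.32, 6.48 and 5.54 in Cx30GRko saline arrays. All 5 Cx30GRko Dex arrays lay above all 5 Cx30GRko saline arrays, and the highest values were those of the pair of arrays that stood apart. In control mice Zbtb16 read 7.46, 7.36, 7.47, 6.91 and 7.08 after Dex, against 6.38, 6.53, 5.73, 5.58 and 7.23 after saline. These groups overlapped through control saline replicate 5, whose 7.23 exceeded 2 of the Dex values. Each of the 10 Dex arrays was above the saline mean of its own genotype and array set.

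The 4 group means of Zbtb16 were 7.62 ± 0.32 (Cx30GRko Dex), 7.26 ± 0.25 (control Dex), 6.21 ± 0.38 (Cx30GRko saline) and 6.29 ± 0.67 (control saline; SD, n = 5 each). Cx30GRko minus control was 0.37 ± 0.25 under Dex (adjusted p = 0.591) and -0.08 ± 0.25 under saline (adjusted p = 0.974). Without Cx30GRko Dex replicates 4 and 5 the value under Dex was 0.14 ± 0.29 (adjusted p = 1.00). Within a genotype the Dex difference of Zbtb16 did not pass: it was 1.42 ± 0.25 in Cx30GRko mice (adjusted p = 0.0613) and 0.97 ± 0.25 in control mice (adjusted p = 0.438). By p-value Zbtb16 stood at rank 5 of all genes in Cx30GRko mice, rank 48 in control mice and rank 10 in the mean of both. No member was called in either genotype. The limma fit called 0 of the 9 in Cx30GRko mice, against 0.0180% of all genes, and 0 of the 9 in control mice, against 0.0135%. An unadjusted p under 0.05 was found in Cx30GRko mice for 4 of the 9, against 9.73% of all genes, and in control mice for 1 of the 9, against 5.16%. Without Cx30GRko Dex replicates 4 and 5 the mean Dex effect of Zbtb16 was 1.08 ± 0.19 (adjusted p = 0.0229) and that in Cx30GRko mice 1.19 ± 0.29 (adjusted p = 0.862).

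Replicates 1 to 3 gave a mean of both genotypes of 1.14 ± 0.12 (adjusted p = 0.00134) and replicates 4 and 5 one of 1.27 ± 0.39 (adjusted p = 0.373), and the first minus the second was -0.13 ± 0.35 (adjusted p = 0.909). In replicates 1 to 3 Zbtb16 differed by 1.06 ± 0.17 in Cx30GRko mice (adjusted p = 0.0783). In control mice of that set Zbtb16 differed by 1.22 ± 0.17 (adjusted p = 0.0155). It was the 1 member among the 38 genes that limma called in control mice of that set. For Cx30GRko mice of the same set limma called 0 members and 7 of all genes. In replicates 4 and 5 the difference of Zbtb16 was 1.95 for Cx30GRko and 0.59 for control mice.

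**Figure D2:**
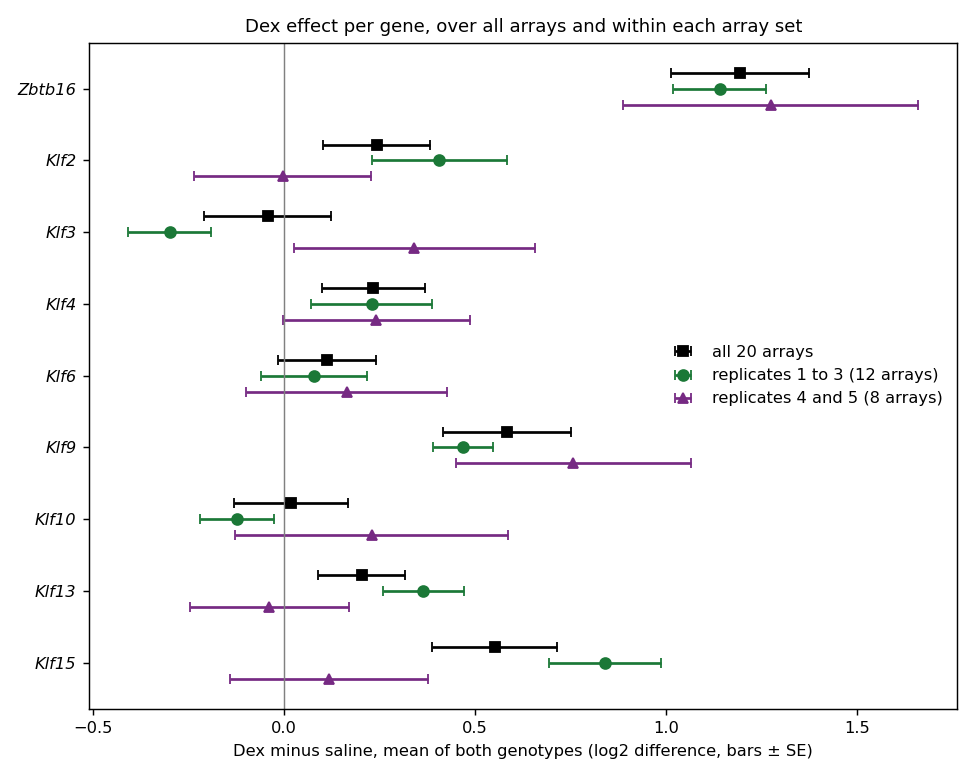
Dex minus saline as the mean of both genotypes (horizontal axis, log2 difference, bars ± SE) for each gene, over all 20 arrays (squares), in replicates 1 to 3 (circles) and in replicates 4 and 5 (triangles). Zbtb16 lies near 1.2 in all 3 fits with values of 1.19, 1.14 and 1.27, while Klf15 lies at 0.84 in replicates 1 to 3 and at 0.12 in replicates 4 and 5.

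Klf9 (probe set 17358214), a repressor of the family that is induced by glucocorticoid and thyroid hormone in neurons, had a mean Dex difference of 0.58 ± 0.17 over all arrays, which did not pass (adjusted p = 0.326). Klf9 read 7.09, 7.15, 7.19, 7.98 and 8.11 in Cx30GRko Dex arrays, against 6.75, 6.71, 6.84, 6.40 and 6.92 in Cx30GRko saline arrays. In control mice it read 7.18, 6.99, 7.31, 6.82 and 6.28 after Dex, against 6.68, 6.50, 6.64, 7.02 and 5.82 after saline. The Cx30GRko groups did not overlap, whereas the control groups did. Zbtb16 and Klf9 were thus 2 of 9 genes whose Cx30GRko groups did not overlap, against 1.53% of all genes, and 0 of 9 did so in control mice, against 1.24%.

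Within replicates 1 to 3 Klf9 rose with Dex by 0.47 ± 0.08 (adjusted p = 0.0230, 6 Dex and 6 saline arrays), with values of 6.99 to 7.31 in Dex arrays and 6.50 to 6.84 in saline arrays. The difference was 0.38 ± 0.11 in Cx30GRko mice and 0.56 ± 0.11 in control mice of that set. Replicates 4 and 5 gave 1.38 for Cx30GRko and 0.13 for control mice. Without Cx30GRko Dex replicates 4 and 5 the Cx30GRko difference of Klf9 was 0.42 ± 0.23 (adjusted p = 1.00) and the mean of both genotypes 0.40 ± 0.15 (adjusted p = 0.826). Astrocyte marker signal was also highest in that pair, with means over the 11 measured markers of 8.26 and 7.92, against at most 7.52 in the other 18 arrays. The part of astrocyte content in the Klf9 values was not tested.

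Klf15 (probe set 17460826), an activator of amino acid breakdown in liver and muscle, had a mean Dex difference of 0.55 ± 0.16, 1.47-fold, which did not pass over all arrays (adjusted p = 0.342). Klf15 read 5.53, 5.44, 5.41, 5.37 and 5.61 in Cx30GRko Dex arrays, against 5.07, 4.54, 4.02, 4.84 and 5.59 in Cx30GRko saline arrays. In control mice it read 5.95, 5.63, 5.75, 5.26 and 4.78 after Dex, against 5.08, 4.98, 4.97, 4.79 and 5.34 after saline. The Cx30GRko Dex arrays were close together, with an SD of 0.10, and the saline arrays of that genotype spread widely, with an SD of 0.59. In both genotypes the groups overlapped through replicate 5.

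In replicates 1 to 3 Klf15 rose with Dex by 0.84 ± 0.15 (adjusted p = 0.0275), with values of 5.41 to 5.95 in the 6 Dex arrays and 4.02 to 5.08 in the 6 saline arrays. The difference in that set was 0.92 ± 0.21 in Cx30GRko mice and 0.77 ± 0.21 in control mice. In replicates 4 and 5 the mean of both genotypes was 0.12 ± 0.26 (adjusted p = 0.929). The first minus the second set was 0.72 ± 0.28, with an unadjusted p of 0.0186 and an adjusted p of 0.198, so the difference between the sets did not pass. In this test of set differences 0 of the 9 genes were called in limma, against 2.16% of all genes called. An unadjusted p under 0.05 was found for 2 of the 9 (Klf3 and Klf15) and for 3515 of the 22180 genes, so the members' share was near that of all genes.

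Zbtb16, Klf9 and Klf15 were the 3 members called for the mean Dex effect in replicates 1 to 3, against 0.455% of all genes. The same 3 had Dex arrays that did not overlap the saline arrays of that set, against 0.920% of all genes. None of the 9 was called in replicates 4 and 5, where no gene of the table passed in limma (unadjusted p under 0.05 in 2224).

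Promoter sequence upstream of Klf9 and Klf15, the factor genes that rose in replicates 1 to 3, is printed beside that of Klf3, which was not called. The windows are the 250 bases before the annotated transcription start, 5′ to 3′ on the gene's strand, from RefSeq on GRCm38.p6, which held windows for 7 of the 9 members. They are chr19:23140976-23141225 (plus strand) for Klf9, chr6:90462326-90462575 (plus strand) for Klf15 and chr5:64803271-64803520 (plus strand) for Klf3. Capitals mark GC boxes (GGGCGG) and KLF boxes (CCACCC) on either strand.
Klf9: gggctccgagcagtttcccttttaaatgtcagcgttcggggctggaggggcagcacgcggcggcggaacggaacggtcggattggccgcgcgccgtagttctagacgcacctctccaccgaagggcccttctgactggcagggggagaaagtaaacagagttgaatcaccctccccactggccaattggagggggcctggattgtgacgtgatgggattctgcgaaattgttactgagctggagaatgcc
Klf15: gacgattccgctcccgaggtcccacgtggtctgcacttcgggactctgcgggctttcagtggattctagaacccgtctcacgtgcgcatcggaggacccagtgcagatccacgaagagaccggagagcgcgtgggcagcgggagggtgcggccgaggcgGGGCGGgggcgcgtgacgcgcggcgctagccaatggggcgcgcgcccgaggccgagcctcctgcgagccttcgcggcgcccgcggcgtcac
Klf3: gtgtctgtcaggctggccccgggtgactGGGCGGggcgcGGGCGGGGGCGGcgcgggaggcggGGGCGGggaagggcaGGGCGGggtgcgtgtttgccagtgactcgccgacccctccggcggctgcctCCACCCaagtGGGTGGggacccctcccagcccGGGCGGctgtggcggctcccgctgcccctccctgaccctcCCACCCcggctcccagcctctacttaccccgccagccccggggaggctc

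The Klf9 window held no capital stretch, and the Klf15 window held 1 GC box, 91 to 86 bases upstream of the start. The Klf3 window held 6 GC boxes and 3 KLF boxes, the most of the 7 windows. The window of Klf6, also not called, held 1 GC box and 0 KLF boxes, as that of Klf15 did. Any link between the boxes and the calls was not tested, and no window of Zbtb16 was among the 7. Over the 7 windows a GC box was present in 6 and a KLF box in 3 (Klf2, Klf3 and Klf13), against 32.7% and 28.1% of all 32851 promoter windows of this length. The same windows were GC-rich, with 59.6% G or C in Klf9, 72% in Klf15 and 78.4% in Klf3 against a median of 52.4% over all windows, and both boxes consist of G and C with few other letters. A glucocorticoid response element (AGAACA, any 3 letters, then TGTTCT, with up to 3 mismatches in the 12 fixed letters, either strand) was found in 0 of the 7 windows, against 12.3% of all windows, and its 6-letter arm AGAACA on either strand in 0 of 7, against 16.1%. In the Klf13 window a KLF box overlapped a GC box. These counts describe letters in short windows only.

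Klf13 (probe set 17491788), a close relative of Klf9 known from T cell and heart gene control, had Dex differences of 0.45 ± 0.16 in Cx30GRko mice (adjusted p = 0.477) and -0.04 ± 0.16 in control mice (adjusted p = 0.995). Klf13 read 5.03, 4.78, 5.22, 5.15 and 4.81 in Cx30GRko Dex arrays, against 4.35, 4.56, 4.79, 4.28 and 4.74 in Cx30GRko saline arrays. In control mice it read 4.82, 4.77, 5.04, 4.60 and 4.40 after Dex, against 4.69, 4.47, 4.59, 5.18 and 4.92 after saline. In replicates 1 to 3 all 6 Dex arrays lay above the saline mean of their genotype, and the mean of both genotypes was 0.37 ± 0.11 (adjusted p = 0.316). In replicates 4 and 5 the Cx30GRko difference was 0.47 and the control difference -0.55.

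The genotype by Dex interaction asked whether the Dex difference depends on the receptor in connexin 30 cells. It was called in limma for 0 of the 9 genes, with 1 (Klf13) at an unadjusted p under 0.05, and for 0% of all genes, 1253 of which had an unadjusted p below 0.05. The Cx30GRko Dex difference minus the control one was 0.45 for Zbtb16 (95% interval -0.30 to 1.20), 0.40 for Klf9 (-0.30 to 1.09), 0.22 for Klf15 (-0.46 to 0.90) and 0.50 for Klf13 (0.02 to 0.97, adjusted p = 0.846). The intervals of Zbtb16, Klf9 and Klf15 hold 0. Towards a larger response in Cx30GRko mice they also hold differences as large as the whole mean Dex effect of each gene (1.19, 0.58 and 0.55). Towards a smaller response in Cx30GRko mice they end at -0.30, -0.30 and -0.46, short of that size. Neither equal nor unequal responses were shown. In replicates 1 to 3 the interaction was -0.16 ± 0.24 for Zbtb16, -0.18 ± 0.16 for Klf9, 0.15 ± 0.29 for Klf15 and 0.15 ± 0.21 for Klf13. In replicates 4 and 5 it was 1.36, 1.25, 0.33 and 1.02 in the same order. Without Cx30GRko Dex replicates 4 and 5 the interaction of Klf9 was 0.04 ± 0.31 and that of Zbtb16 0.22 ± 0.38 (adjusted p = 1.00 for both).

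**Figure D3:**
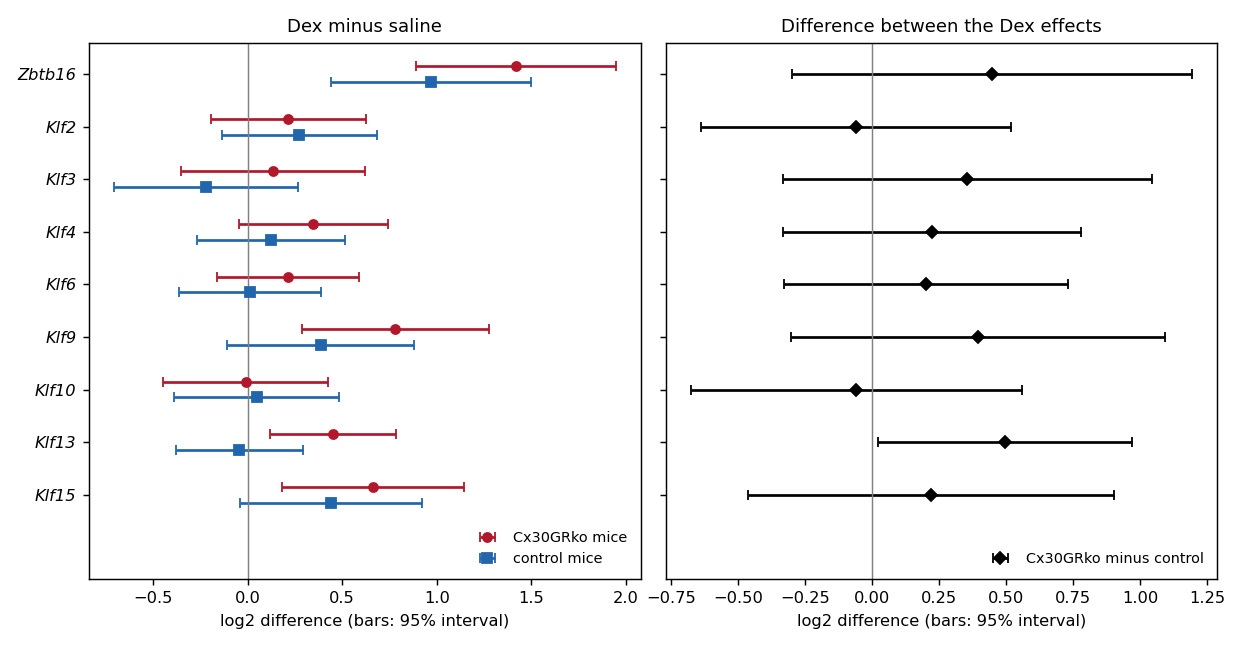
Left, Dex minus saline in Cx30GRko mice (circles) and in control mice (squares); right, the Cx30GRko difference minus the control one (diamonds). Horizontal axes are log2 differences and bars are 95% intervals. The interval of the right panel holds 0 for 8 of the 9 genes, and that of Klf13 runs from 0.02 to 0.97.

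The genotypes were also compared within each treatment in the same fit. Under saline limma called 0 of the 9 genes, with 1 (Klf6) at an unadjusted p under 0.05, and 0% of all genes, with 1165 at an unadjusted p under 0.05. Klf6 (probe set 17285000), a factor induced by injury and known from myelination, stood at -0.41 ± 0.18 in Cx30GRko against control mice (adjusted p = 0.914). Klf6 read 4.53, 4.53, 5.26, 3.99 and 5.08 in Cx30GRko saline arrays, against 4.95, 5.07, 5.07, 5.15 and 5.21 in control saline arrays. The control values lay between 4.95 and 5.21, and the Cx30GRko values lay on both sides of that range. Under Dex limma called 0 of the 9 genes, with 1 (Klf9) at an unadjusted p under 0.05, and 0% of all genes, with 2481 at an unadjusted p under 0.05. Klf9 stood at 0.59 ± 0.24 in Cx30GRko against control mice under Dex (adjusted p = 0.423), with -0.02 in replicates 1 to 3 and 1.49 in replicates 4 and 5. Leaving out Cx30GRko Dex replicates 4 and 5 gave 0.23 ± 0.23 (adjusted p = 1.00).

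Klf2, Klf4, Klf6 and Klf10, factors whose transcripts respond fast to flow, growth factors or injury, did not pass in any comparison over all arrays. Klf2 (probe set 17502440), which keeps endothelium quiescent, had a mean Dex difference of 0.24 ± 0.14 (adjusted p = 0.630). Its values ran from 3.68 to 4.95 in control Dex arrays, a range wider than in any other group and set by replicate 2, against 3.65 to 4.03 in control saline arrays. In Cx30GRko mice Klf2 ran from 3.76 to 4.29 after Dex and from 3.66 to 4.21 after saline. Klf4 (probe set 17425401), a factor of endothelium and of reprogramming to pluripotency, had a mean Dex difference of 0.23 ± 0.13 (adjusted p = 0.628), with 0.23 in replicates 1 to 3 and 0.24 in replicates 4 and 5. Klf4 ran from 3.67 to 4.80 in Cx30GRko Dex arrays, against 3.83 to 4.25 in Cx30GRko saline arrays, and from 4.02 to 4.43 in control Dex arrays, against 3.77 to 4.53 in control saline arrays. Klf2 and Klf4 had means of 4.01 and 4.16 over all arrays, under the 4.34 that was the median of all probe sets, and the table holds no detection call for them.

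Klf6 had a mean Dex difference of 0.11 ± 0.13 (adjusted p = 0.810; 95% interval -0.15 to 0.38). Klf10 (probe set 17316690), the early gene of TGF-beta, had one of 0.02 ± 0.15 (adjusted p = 0.977; 95% interval -0.29 to 0.33). Klf10 ran from 4.01 to 5.05 in Cx30GRko Dex arrays, against 4.38 to 4.77 in Cx30GRko saline arrays, and from 4.14 to 5.48 in control Dex arrays, against 4.28 to 4.74 in control saline arrays. Both upper ends belonged to replicate 4 and both lower ends of the Dex groups to replicate 5. The intervals of Klf6 and Klf10 leave out a 1.5-fold change in either direction.

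Klf3 (probe set 17437674), a repressor that binds the corepressor CtBP, had a mean Dex difference of -0.04 ± 0.17 (adjusted p = 0.951). Klf3 read 5.14, 4.75, 4.95, 6.08 and 5.15 in Cx30GRko Dex arrays, against 5.32, 5.01, 4.84, 5.60 and 4.63 in Cx30GRko saline arrays. In control mice it read 4.75, 4.87, 4.77, 4.79 and 4.75 after Dex, against 5.43, 5.37, 5.06, 4.87 and 4.30 after saline. The control Dex arrays lay close together, with an SD of 0.05, and the control saline arrays lay on both sides of them. Replicates 1 to 3 gave a mean of both genotypes of -0.30 ± 0.11 (adjusted p = 0.522), against 0.34 ± 0.31 in replicates 4 and 5 (adjusted p = 0.791). The first minus the second was -0.64 ± 0.29, with an unadjusted p of 0.0413 and an adjusted p of 0.288.

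Over the 9 genes the median Dex difference was 0.35 in Cx30GRko mice, 0.12 in control mice and 0.23 in the mean of both, against medians over all genes of 0.02, 0.01 and 0.02. In the mean of both genotypes 8 of the 9 lay above 0. In arrays of replicates 1 to 3 the signals of Zbtb16 and Klf9 had a Pearson correlation of 0.88 over 12 arrays, Zbtb16 and Klf15 one of 0.77, Klf9 and Klf13 one of 0.82 and Klf3 and Klf9 one of -0.74. These pairs are named because they were the strongest among the members in replicates 1 to 3. In replicates 4 and 5 the same pairs had correlations of 0.38, 0.33, 0.46 and 0.61 over 8 arrays. The strongest pair there was Klf2 and Klf10, at 0.88, against -0.47 in replicates 1 to 3. Both sets share the Dex and saline groups. With the group means removed over all 20 arrays, the pairs picked in replicates 1 to 3 stood at -0.13, 0.11, 0.35 and 0.35.

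The genes with the most similar pattern to Zbtb16 over the 20 arrays, by Pearson correlation of the log2 signals, were Usp54 (0.88), Vps11 (0.84), Acaca (0.81), Slc25a13 (0.81) and Hs1bp3 (0.80). Of these Slc25a13, a mitochondrial aspartate-glutamate carrier, rose with Dex in the mean of both genotypes (1.37, adjusted p = 0.000185), and Usp54, of the ubiquitin protease family, stood at 0.69 (adjusted p = 0.113). With the group means removed the 5 were Man1a, Id2, Rdh19, Tnnc2 and Spred1 (0.85 to 0.91), and none of these was among the first 5. For Klf9 the 5 were Atp6v0e, Pik3c2a, Klhdc3, Gars and Slc2a1 (0.89 to 0.91). Slc2a1, the glucose transporter of the blood-brain barrier, rose with Dex (0.73, adjusted p = 0.0285) and kept a correlation with Klf9 of 0.91 in replicates 1 to 3, whereas Atp6v0e, the first of the 5, had 0.50 there and 0.98 in replicates 4 and 5. With the group means removed Klf9 was most like Klhdc3, Selenow, Ro60, Dcun1d5 and Chl1 (0.91 to 0.96). For Klf15 they were Tiparp (0.86), Rhbdl3, Lao1, Dclre1b and Ddit4 (0.76). Ddit4, an inhibitor of mTOR signalling, rose with Dex (0.83, adjusted p = 0.0285), and replicates 1 to 3 gave it a correlation of 0.86 with Klf15 and replicates 4 and 5 one of 0.10. With the group means removed Klf15 was most like Sox3, Tank, Ces1f, Arfgap1 and Zfp459 (0.78 to 0.83).

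Relatives and partners of the 9 genes were read from lists. Of the other Krüppel-like and SP factors 17 of 18 were measured, and limma called 0 of them in the 6 comparisons. Their median Dex difference in the mean of both genotypes was 0.04, with 10 of 17 above 0, against a median of 0.02 over all genes. The smallest p was that of Sp6, a factor of tooth and skin development, at 0.39 ± 0.11 (adjusted p = 0.332), with 0.44 and 0.31 in the array sets. It was followed by Klf7, a factor of axon growth, at -0.28 ± 0.12 (adjusted p = 0.541). Klf11, the nearest relative of Klf10, stood at -0.22 ± 0.17 (adjusted p = 0.722). Of the other BTB zinc finger genes 30 of 31 were measured, 0 were called and 15 lay above 0. Bcl6, a repressor of germinal centre B cells, stood at 0.45 ± 0.16 (adjusted p = 0.479), with 0.29 and 0.69 in the sets, and Zbtb33 at -0.36 ± 0.15 (adjusted p = 0.541).

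Corepressor subunits and Cul3, the ubiquitin ligase scaffold that binds BTB proteins, were measured for 13 of 17 members. None was called, and the median was 0.06. Hdac1, a histone deacetylase, stood at 0.36 ± 0.19 (adjusted p = 0.610), with 0.71 in Cx30GRko mice and 0.00 in control mice, and Cul3 at 0.18 ± 0.15 (adjusted p = 0.724). Genes upstream of Klf2, Klf4 and Klf10, among them the ERK5 kinase cascade, the MEF2 factors and TGF-beta signalling, were all measured (16 of 16, with Klf2 and Klf4 in the list), and 0 were called. Smad4, the shared TGF-beta mediator, stood at 0.43 ± 0.21 (adjusted p = 0.581), with -0.00 in replicates 1 to 3 and 1.08 in replicates 4 and 5. Foxo1, a factor upstream of Klf2 in lymphocytes, stood at 0.25 ± 0.14 (adjusted p = 0.620).

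Genes known as targets of KLF2 or KLF4 in endothelium were measured for 9 of 9 members, and 0 were called. Plvap, the diaphragm protein of leaky vessels, stood at 0.52 ± 0.16 (adjusted p = 0.359), Edn1, the endothelin 1 gene, at 0.35 ± 0.17 (adjusted p = 0.575) and Thbd, the thrombomodulin gene, at -0.10 ± 0.16 (adjusted p = 0.885). Endothelial markers had 0 of 12 called, a median of -0.07 and 5 of 12 above 0, with Kdr, a VEGF receptor, at -0.48 ± 0.19 (adjusted p = 0.537; -0.95 and 0.22 in the sets). Their mean level after Dex ran from 5.32 to 6.14 in Cx30GRko and from 5.23 to 5.48 in control arrays, and after saline from 5.35 to 5.63 and from 5.39 to 5.75. The part of vessel content in the Klf2 and Klf4 values was not tested.

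Genes known as targets of KLF15 or KLF9 in other tissues were measured for 12 of 13 members. In the mean of both genotypes 2 passed, against 0.149% of all genes called. Cdkn1a, a cyclin-dependent kinase inhibitor, rose by 1.80 ± 0.19 (adjusted p = 7.64e-05), and Fbxo32 (atrogin-1), which KLF15 activates in muscle, fell by 0.68 ± 0.12 (adjusted p = 0.0162). The median of the list was 0.05. Of 25 glucocorticoid receptor targets, a list that also holds Cdkn1a and Bcl6, 10 rose and 0 fell, against the same 0.149%. Their median was 0.48, against 0.02 over all genes. Both lists were chosen with earlier results of these data known, so their counts are a description only. Of 13 immediate early genes 0 were called, with a median of -0.10, and Atf3, a stress-induced factor, stood at 0.30 ± 0.13 (adjusted p = 0.566).

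Astrocyte markers were measured for 11 of 12 members, and 0 were called in any comparison. In Cx30GRko mice 11 of 11 lay higher after Dex than after saline, with a median of 0.34 (replicates 1 to 3, 0.04; replicates 4 and 5, 0.81). Among control mice 8 of 11 lay higher, with a median of 0.10, and 0.08 in both sets. The mean level of the markers after Dex ran from 7.36 to 8.26 in Cx30GRko and from 7.02 to 7.51 in control arrays, and after saline from 7.17 to 7.48 and from 6.97 to 7.39. Neuron and oligodendrocyte markers were likewise highest in Cx30GRko Dex replicate 4, with mean levels of 8.61 and 8.62, against at most 8.03 and 8.06 outside the pair of arrays that stood apart. The part of astrocyte content in the values of Zbtb16 and Klf15 was not tested either. Of 10 meningeal fibroblast and 6 Schwann cell markers measured 0 were called in any comparison. The median Dex difference was 0.35 in Cx30GRko and -0.51 in control mice for the fibroblast markers, and 0.54 and -0.84 for the Schwann cell markers. The part of these tissues in the results was not tested. The log2 scale has no zero, so no marker could be placed at 0.

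**Figure D4:**
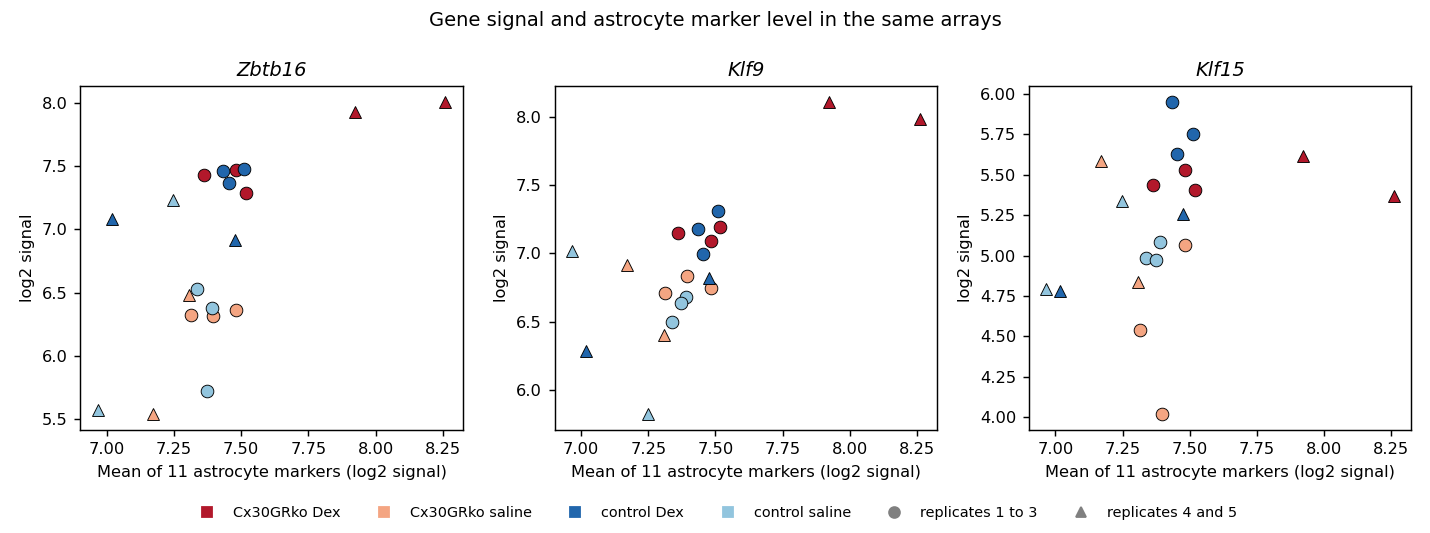
Log2 signal of Zbtb16, Klf9 and Klf15 (vertical axes) against the mean log2 signal of 11 astrocyte markers in the same array (horizontal axes), with colours for the groups, circles for replicates 1 to 3 and triangles for replicates 4 and 5. The triangles at 7.92 and 8.26 are Cx30GRko Dex replicates 5 and 4, which also hold the highest signals of Zbtb16 and Klf9 but not of Klf15.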

How the data were processed

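RNA of 20 mouse spinal cords was measured on Affymetrix arrays. The authors deposited 1 table of log2 probe set signals (41345 probe sets), made with oligo, per the submitters' processing notes, with the version, normalization, genome build and annotation not given in the sources used here. All arrays had the same mean of 4.64, and the probe set means of both array sets agreed within 4.5e-09, so the values had been normalized and centred within sets. Scanner files were not used here.

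Probe sets with 1 symbol in the platform annotation (23521; 1814 had several and 16010 none) were reduced to the brightest per gene, leaving 22180 genes. Group means were fitted to all 20 arrays with limma 3.58.1 in R 4.3.3 (16 residual and 5.66 prior degrees of freedom, no block), and the fit was tested on simulated data. The centring used 1 further degree of freedom that this fit does not count. P-values were two-sided, adjusted by Benjamini-Hochberg over all genes within each of 6 comparisons and called under 0.05. The set difference was fitted on 8 means (group by array set), a test added after the data were seen. Deviations from group means correlated between -0.26 and 0.05 for same-numbered arrays of different groups, with medians of -0.08 to -0.06 per number. The other pairs of arrays from different groups had a median of 0.04. Same-numbered arrays thus did not deviate together, which does not tell whether the mice were matched by number.

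The members and lists were chosen with earlier results of these data known. The genes named are the members, Nr3c1, up to 4 genes per list with the smallest p of the mean Dex effect, and the 5 most correlated genes of Zbtb16, Klf9 and Klf15. A search of the proteins for zinc fingers was planned, and protein sequences were not used here. Alternatives were the replicate number or array set as a block, only the groups compared, each array set alone, arrays left out, all probe sets, a filter on dim genes, quantile normalization again, array weights, and trended robust variances.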

Additional observations from a re-analysis of the deposited data

Results flagged for a closer look

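Among the 36 sets of 5 arrays (9 genes in 4 groups), 1 held an array whose gap to its nearest neighbour was large for the range of its group: Zbtb16 in Cx30GRko saline replicate 5, with 5.54 against 6.32 in the next lowest array, a gap of 0.83 of the group's range where the limit for 5 values is 0.71. Chance gives such a gap in about 1 in 20 groups. Without this array the Dex difference of Zbtb16 was 1.25 in Cx30GRko mice and 1.11 in the mean of both genotypes.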

How the results depend on the processing

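Zbtb16 kept its call for the mean Dex effect in 29 of 30 alternatives, with differences of 1.08 to 1.31. The exception was replicates 4 and 5 only (1.27, adjusted p = 0.373). With a replicate block its adjusted p was 0.0192, and with an array set block 0.00548. Same-numbered arrays did not deviate together, so the block is no test of pairing. Over 1644 values of the 9 genes 1634 kept their side of the threshold, 9 passed it, 1 no longer did, and 89 changed sign, all of them uncalled. Among members, the count called became 3 for the mean effect in replicates 1 to 3, 2 with array weights (Zbtb16 and Klf15) and 0 in replicates 4 and 5. In Cx30GRko mice it became 1 (Zbtb16) with dim genes left out or array weights, and in control mice 1 (Zbtb16) in replicates 1 to 3 or with array weights. Leaving out 1 array at a time gave 0 to 1 members in Cx30GRko mice, where Zbtb16 was called without control saline replicate 4 or without replicate 5 (lowest adjusted p 0.0117), 0 in control mice and 1 for the mean effect.

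Over all genes the 33 calls of the mean effect became 15 with a replicate block, 101 and 0 in the array sets, 20 with all probe sets and 129 with array weights, and 18 to 35 without 1 array. The 4 calls in Cx30GRko mice became 0 with a replicate block, 2 with an array set block or quantile normalization, 1 with only the groups compared, 7 and 0 in the array sets, 0 without Cx30GRko Dex replicates 4 and 5 or with all probe sets, 18 with array weights, and 0 to 6 without 1 array. The 3 calls in control mice became 0 with a replicate block or only the groups compared, 38 and 0 in the array sets, 7 without Cx30GRko Dex replicates 4 and 5, 1 with all probe sets, 58 with array weights, and 0 to 5 without 1 array. The interaction and the saline comparison gave 0 to 1 and the genotype difference under Dex 0 without 1 array. Where limma made 0 calls in these 3 Dex comparisons, 685 to 2917 genes had an unadjusted p under 0.05. In the Cx30GRko fit with all probe sets, 3674 probe sets did. The causes were not tested. No second probe set existed for any member. The dim filter left out Klf2 and Klf4.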
